A study of Bubalus bubalis with 6 samples.

Results

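The genes described here were 50 named factors of ribosome biogenesis and of the nucleolus. They were chosen by gene symbol, with earlier results of these data known. The gene table of buffalo (Bubalus bubalis) muscle stem cells (MuSCs) listed 44 of them among its 24616 genes. LTV1, NCL, PPAN, DDX18, DDX21 and NPM1 were not listed under these symbols and were not analysed here. All 44 listed genes were protein coding, all passed the filter on low counts that left 15576 genes for testing, and they lay on 23 chromosomes with at most 4 on any one. Positions are those of the gene table, which lists cattle Ensembl identifiers and names no genome build.

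RNA-seq was performed on 3 GM samples, MuSCs in the proliferation phase, and 3 DM samples, MuSCs in the differentiation phase. Per the study's methods, the MuSCs were primary cells from fetal longissimus muscle, the GM samples grew in high-glucose DMEM with fetal bovine serum, and the DM samples were switched near confluence to DMEM with horse serum. Medium and growth phase therefore changed together between the groups and cannot be told apart. The labels do not say that the samples came from separate cultures or animals, so the p-values measure the spread between these samples, which may be technical.

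Ribosomes are built in the nucleolus, where RNA polymerase I (Pol I) transcribes the long rRNA precursor. Small nucleolar ribonucleoproteins (snoRNPs) of the box C/D and box H/ACA kinds guide its ribose methylation and pseudouridylation, and further factors fold, cut and pack it with ribosomal proteins into the small and the large subunit. Growing and dividing cells make many ribosomes, and ribosome production is known to decline as myoblasts leave the cell cycle and fuse into myotubes. The 44 genes fall into 6 roles along this route: 6 genes of Pol I transcription, 3 of box C/D snoRNPs, 4 of box H/ACA snoRNPs, 18 of small subunit assembly, 10 of large subunit assembly and 3 nucleolar organisers and regulators.

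Every one of the 44 genes was lower in the DM samples than in the GM samples. In 44 of 44, the highest DM sample lay below the lowest GM sample, an arrangement that 34.3% of all tested genes showed in this direction and 68.8% in either direction. Levels are given in CPM, counts divided by a library size scaled with TMM factors, so that samples can be compared for one gene. A gene was called at any fold where the adjusted p was under 0.05, and called at 2-fold where the log2 fold change (DM over GM) also lay beyond 1 in size. At any fold, 44 genes were called lower and 0 higher, against 31.4% of all genes called lower, 31.6% called higher and 63.0% called in either direction. At 2-fold, 18 of the 44 were called lower and 0 higher, or 40.9%, against 10.3% of all genes called lower, 15.0% called higher and 25.3% called in either direction.

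The members' levels were in the upper range of the table, where counting error is small. Each had between 537 and 12894 counts in every sample. Among the 5868 genes whose mean GM level lay within the members' range of 22.0 to 291.2 CPM, 10.5% were called lower at 2-fold and 49.0% at any fold. The median log2 fold change was -0.80 over the 44 members, -0.18 over the genes of that level range and 0.03 over all tested genes. The changes ran from -0.19 for NOP10 to -1.58 for NOLC1, with a median of 1.74-fold lower, standard errors (SE) of 0.057 to 0.130 and adjusted p between 2.11e-08 and 0.046. The 2-fold boundary cut through a dense stretch, with 9 members between -1.1 and -0.9 on the log2 scale.

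**Figure D1:**
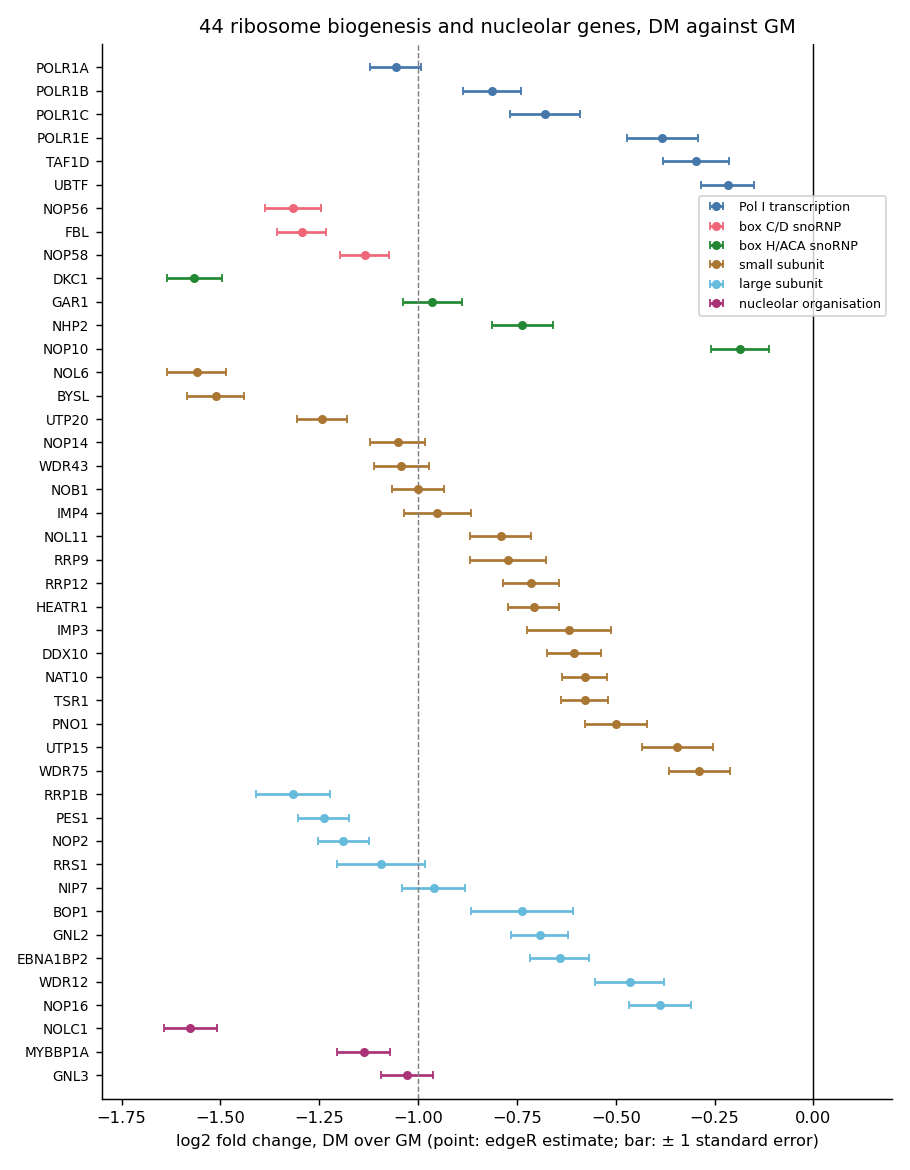
Log2 fold change (DM over GM, horizontal axis) of each of the 44 genes, grouped and coloured by role; points are edgeR estimates, bars 1 SE, and the dashed line marks a 2-fold fall. All points lie to the left of 0, from -0.19 (NOP10) to -1.58 (NOLC1), and every role spans a range of changes.

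Summed over the 44 genes, the members took 0.436%, 0.451% and 0.440% of all gene counts in the GM samples and 0.206%, 0.214% and 0.223% in the DM samples. The group means were 0.442% ± 0.00777 and 0.214% ± 0.0085 (SD, n = 3). On the scaled CPM the sums were 4207, 4372 and 4255 in the GM samples and 2174, 2173 and 2297 in the DM samples, so the groups stood far apart relative to the spread within each. DM sample 3 was the highest DM sample for 25 of the 44 genes and DM sample 1 the lowest for 19. The spread between samples was wider in DM, with a median coefficient of variation over the members of 7.16% against 3.53% in GM. It reached 21.5% for BOP1 in DM and 10.5% for RRP1B in GM.

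The libraries held between 35615864 and 40305237 gene counts, and the TMM factors were 1.03 to 1.04 in GM and 0.948 to 0.983 in DM. The groups also differed in growth and in cell state. All 8 proliferation markers fell at 2-fold, with summed levels of 1600 to 1650 CPM in GM and 350 to 437 CPM in DM, and MKI67 went from 677 ± 19.3 to 133 ± 8.37 CPM (SD, n = 3). Of 12 myogenic markers, 10 were listed, 6 were called higher and 3 lower at any fold, and DES was not called. MYOG rose from 52.9 ± 13.3 to 167 ± 15.5 CPM, MYH3 from 346 ± 121 to 2060 ± 566 CPM and CKM from 1.19 ± 0.537 to 94.9 ± 10.9 CPM, and MYOD1, MYF6 and CHRND also rose. MYF5 fell from 143 ± 6.38 to 22.0 ± 3.34 CPM and PAX7 from 18.5 ± 0.174 to 9.77 ± 3.25 CPM, and PAX3 had 2 to 6 counts in the GM samples and 0 in the DM samples. All 8 fibroblast markers were higher in DM, 6 of them at 2-fold, with summed levels of 27400 to 27900 CPM in GM and 66600 to 79200 CPM in DM. Smooth muscle and pericyte markers summed to 1160 to 1350 CPM in GM and 1330 to 1540 CPM in DM, mostly from ACTA2, with RGS5 at 0 to 4 counts in a sample. Endothelial, adipocyte, immune and Schwann cell markers summed to at most 13.3 CPM in any sample. The part of these marker changes in the members' fall was not tested, and in bulk samples fewer cells of a type and less RNA per cell cannot be told apart.

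Pol I transcription was the role with the smallest median change, at -0.53 on the log2 scale over 6 genes, and 1 of the 6 was called at 2-fold. POLR1A, which encodes the largest catalytic subunit of Pol I (ENSBTAG00000006481, chromosome 11, 48629652 to 48713878, plus strand), had 107.7, 109.9 and 103.2 CPM in the GM samples and 53.9, 50.8 and 49.6 CPM in the DM samples. The DM samples lay close together near 0.5 of the GM level, and the log2 fold change was -1.06 (SE 0.064). The 2-fold call of POLR1A was lost with upper quartile scaling (-0.99) and in the test against a fold change of 2, which left 0 of the 6 genes called. POLR1B, the other large subunit of the catalytic core, had 63.8, 61.5 and 62.3 CPM in the GM samples and 36.3, 32.6 and 37.7 CPM in the DM samples, with a log2 fold change of -0.81 (SE 0.073). UBTF, which binds the rRNA gene promoter and body (ENSBTAG00000005067, chromosome 19, 44648952 to 44660383, minus strand), had 138.9, 142.9 and 124.9 CPM in the GM samples and 116.9, 113.2 and 119.8 CPM in the DM samples. Its groups came within a few CPM of each other, GM sample 3 being the nearest to the DM range, and the log2 fold change of -0.22 (SE 0.067) had an adjusted p = 0.0164. That adjusted p lay between 0.0614 and 0.0716 in 4 of 16 other settings, among them the fits without GM sample 1, without GM sample 2 and without DM sample 2. The remaining genes of the role were POLR1C, a subunit shared with RNA polymerase III, at -0.68, POLR1E, a Pol I-specific subunit, at -0.38, and TAF1D, a subunit of the promoter selectivity complex, at -0.30. The catalytic core subunits therefore had larger estimates than the promoter factors UBTF and TAF1D, and this difference between genes was not tested.

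The box C/D snoRNP proteins fell together, and all 3 were called at 2-fold. FBL, the ribose methyltransferase of the particle (ENSBTAG00000002579, chromosome 18, 49659188 to 49718941, minus strand), had 282.7, 309.9 and 280.9 CPM in the GM samples and 117.1, 119.7 and 119.4 CPM in the DM samples. NOP56, a scaffold protein of the particle (ENSBTAG00000018812, chromosome 13, 52983685 to 52988922, minus strand), had 221.5, 247.2 and 226.6 CPM in the GM samples and 86.5, 94.8 and 97.8 CPM in the DM samples. NOP58, the partner scaffold (ENSBTAG00000005517, chromosome 2, 91203326 to 91227105, plus strand), had 138.3, 136.4 and 144.6 CPM in the GM samples and 60.8, 65.7 and 64.3 CPM in the DM samples. In each, the DM samples lay well under the lowest GM sample, and the DM samples of FBL were nearly equal. The log2 fold changes were -1.29 (SE 0.062) for FBL, -1.32 (SE 0.071) for NOP56 and -1.14 (SE 0.062) for NOP58, with adjusted p of at most 9.92e-08. FBL overlapped PSMC4 on the opposite strand over 10857 bases, and PSMC4 itself was lower in DM by a log2 fold change of -0.66 (SE 0.064, adjusted p = 6.18e-06). NOP56 overlapped IDH3B on the opposite strand by 1 base, and whether the counting used strand is not stated.

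The box H/ACA core proteins did not fall alike. DKC1, the pseudouridine synthase, which also belongs to the telomerase complex (ENSBTAG00000013045, chromosome X, 39037544 to 39049378, minus strand), had 204.1, 209.1 and 205.5 CPM in the GM samples and 72.2, 63.6 and 73.2 CPM in the DM samples. It fell 2.96-fold, the second largest change among the members, with a log2 fold change of -1.57 (SE 0.069) and an adjusted p = 2.46e-08. GAR1, which binds DKC1 directly, had 43.7, 44.7 and 43.8 CPM in the GM samples and 21.4, 21.9 and 24.5 CPM in the DM samples, and its log2 fold change of -0.96 (SE 0.075) lay just short of 2-fold. NHP2, an RNA-binding protein of the core, had 55.9, 62.3 and 63.7 CPM in the GM samples and 34.5, 36.0 and 38.5 CPM in the DM samples, with a log2 fold change of -0.74 (SE 0.077). NOP10, the smallest protein of the core (ENSBTAG00000025632, chromosome 10, 28351840 to 28355349, plus strand), had 31.4, 32.5 and 33.6 CPM in the GM samples and 27.8, 27.6 and 30.3 CPM in the DM samples. The NOP10 groups almost touched, with GM sample 1 and DM sample 3 differing by less than the SD within DM, and the log2 fold change was -0.19 (SE 0.073) with an adjusted p = 0.046. This was the highest adjusted p of the 44, and it lay between 0.0522 and 0.184 in 13 of 16 other settings.

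**Figure D2:**
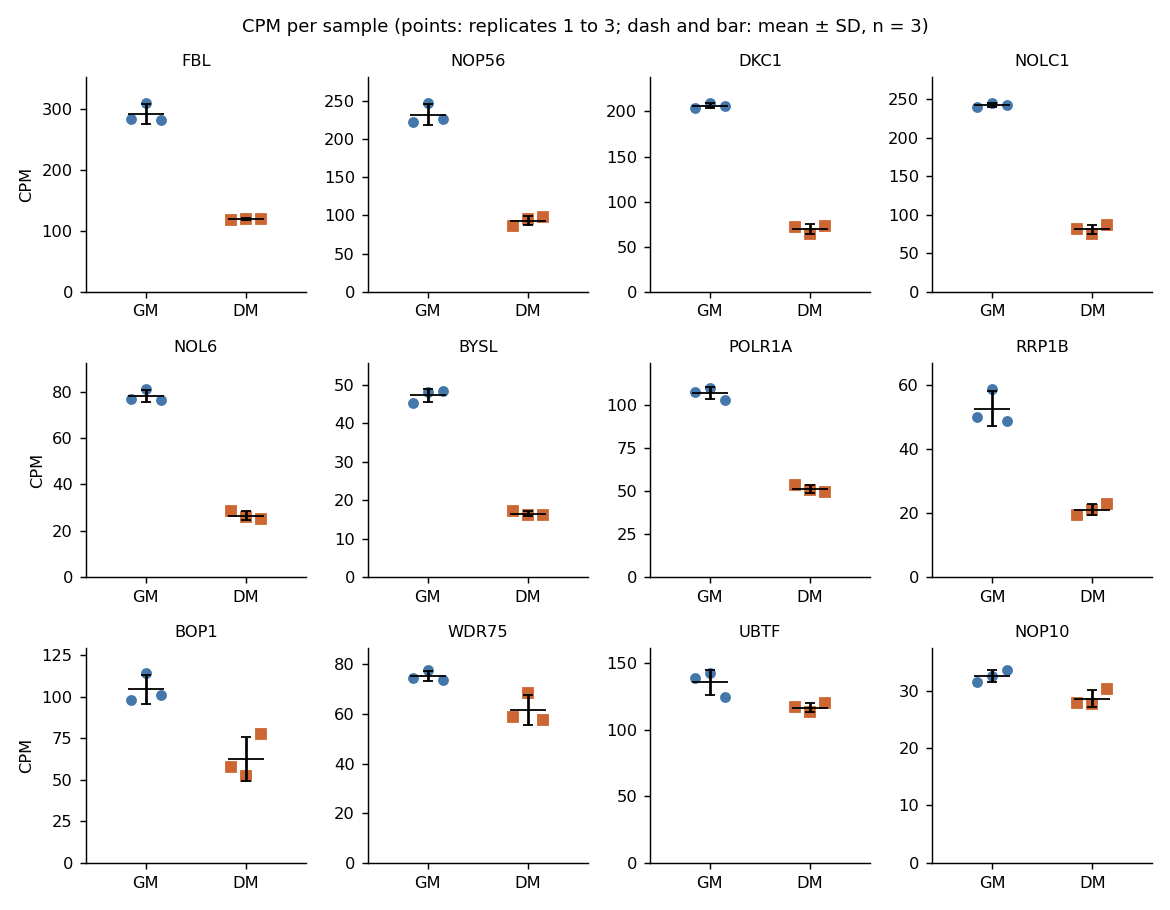
TMM-scaled CPM (vertical axes, from 0) of selected members in each GM (circles) and DM (squares) sample, with the mean and SD of 3 samples. NOLC1, DKC1, NOL6 and BYSL fell near 3-fold with tight replicates, BOP1 was spread in DM (52.0 to 77.7 CPM), and the UBTF and NOP10 groups nearly met.

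Small subunit assembly was the largest role, with 18 listed genes, of which 6 were called at 2-fold, and a median log2 fold change of -0.74. NOL6, a protein of the small subunit processome (ENSBTAG00000003323, chromosome 8, 76540581 to 76552661, minus strand), had 77.0, 81.2 and 76.6 CPM in the GM samples and 28.8, 25.8 and 25.1 CPM in the DM samples. BYSL, which acts on the precursor of the small subunit (ENSBTAG00000010101, chromosome 23, 15696925 to 15706220, plus strand), had 45.3, 48.1 and 48.5 CPM in the GM samples and 17.2, 16.2 and 16.3 CPM in the DM samples. UTP20, another processome protein, had 130.3, 118.5 and 124.7 CPM in the GM samples and 52.0, 53.8 and 52.1 CPM in the DM samples. For these 3 genes every DM sample was below 0.5 of the lowest GM sample, and the log2 fold changes were -1.56 (SE 0.075), -1.51 (SE 0.072) and -1.24 (SE 0.063).

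Of the same role, NOP14, a processome protein, had 125.5, 141.7 and 131.7 CPM in the GM samples and 64.5, 60.6 and 67.4 CPM in the DM samples. WDR43, a member of the t-UTP subcomplex that links the processome to Pol I transcription, had 141.2, 135.5 and 135.8 CPM in the GM samples and 61.3, 70.0 and 69.1 CPM in the DM samples. NOB1, the endonuclease that makes the last cut of the small subunit rRNA, had 79.8, 82.0 and 82.3 CPM in the GM samples and 41.0, 38.5 and 42.5 CPM in the DM samples. No DM sample of these genes came near the GM range, and the log2 fold changes of -1.05 (SE 0.071) for NOP14, -1.04 (SE 0.069) for WDR43 and -1.001 (SE 0.066) for NOB1 were close to the 2-fold line. NOB1 overlapped WWP2, itself lower in DM at -0.65 (SE 0.069), on the opposite strand by 583 bases. The 2-fold call of NOB1 was lost in 11 of the other settings and those of NOP14 and WDR43 in 4 each, while the fall at any fold held in all 16 settings that tested for any change.

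The smallest change of the role was that of WDR75, another t-UTP protein, which had 74.6, 77.5 and 73.8 CPM in the GM samples and 58.8, 68.5 and 57.6 CPM in the DM samples. DM sample 2 lay nearest to the GM range, and the log2 fold change was -0.29 (SE 0.077) with an adjusted p = 0.00752. IMP3 and IMP4 bind the U3 snoRNA, which pairs with the rRNA precursor. IMP3 had 33.5, 31.7 and 34.9 CPM in the GM samples and 22.1, 24.8 and 18.3 CPM in the DM samples, and IMP4 had 51.0, 52.1 and 57.6 CPM in the GM samples and 29.5, 24.9 and 28.7 CPM in the DM samples. Both were lower in every DM sample, with log2 fold changes of -0.62 (SE 0.106) and -0.95 (SE 0.086). Among the other 9 genes of the role, the estimates were -0.79 for NOL11, -0.71 for HEATR1 and -0.34 for UTP15, which are further t-UTP proteins. RRP9, a protein of the U3 snoRNP, was at -0.77, RRP12, which acts in export of the precursor, at -0.71, and the helicase DDX10 at -0.60. NAT10, which acetylates the small subunit rRNA, was at -0.58, TSR1, a late assembly factor, at -0.58, and PNO1, the partner of NOB1, at -0.50. These 9 genes all passed the test at any fold and none at 2-fold, and the adjusted p of the 18 genes was at most 0.00752.

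Large subunit assembly had 10 listed genes, 4 of them called at 2-fold, and a median log2 fold change of -0.85. RRP1B, a nucleolar processing factor (ENSBTAG00000017418, chromosome 1, 146437114 to 146461658, plus strand), had 50.1, 58.8 and 48.7 CPM in the GM samples and 19.6, 20.9 and 22.8 CPM in the DM samples. PES1, which with BOP1 and WDR12 forms the PeBoW complex of rRNA processing (ENSBTAG00000007728, chromosome 17, 71681088 to 71700449, minus strand), had 160.5, 167.8 and 163.2 CPM in the GM samples and 71.9, 65.0 and 71.3 CPM in the DM samples. Both were far lower in every DM sample, and the log2 fold changes were -1.32 (SE 0.094) for RRP1B and -1.24 (SE 0.064) for PES1. NOP2, an rRNA methyltransferase, had 104.1, 106.4 and 101.5 CPM in the GM samples and 48.0, 44.0 and 44.8 CPM in the DM samples, with a log2 fold change of -1.19 (SE 0.064). RRS1, which helps bring the smallest rRNA into the particle, had 56.5, 63.8 and 63.5 CPM in the GM samples and 26.4, 25.5 and 34.2 CPM in the DM samples. DM sample 3 was the highest DM sample of RRS1, the log2 fold change was -1.09 (SE 0.111), and without DM sample 2 it was -1.0 and no longer past the 2-fold line.

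The other PeBoW genes fell less than PES1. BOP1 had 97.9, 114.1 and 101.0 CPM in the GM samples and 58.0, 52.0 and 77.7 CPM in the DM samples, and WDR12 had 56.1, 57.9 and 57.6 CPM in the GM samples and 36.0, 42.7 and 45.6 CPM in the DM samples. For both genes DM sample 3 was the nearest to the GM range, and the log2 fold changes were -0.74 (SE 0.13) for BOP1 and -0.47 (SE 0.088) for WDR12. BOP1 overlapped SCX on the opposite strand, a gene with 72 counts over all samples. NOP16 changed least among the large subunit genes, with 41.4, 46.2 and 44.1 CPM in the GM samples and 31.2, 33.5 and 36.0 CPM in the DM samples and a log2 fold change of -0.39 (SE 0.079). NIP7, which acts in rRNA processing of the large subunit, was at -0.96, the nucleolar GTPase GNL2 at -0.69, and EBNA1BP2, an assembly factor, at -0.64. All 10 genes passed the test at any fold, with an adjusted p of at most 0.0014.

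The 3 nucleolar organisers and regulators were all called at 2-fold. NOLC1, a chaperone of snoRNPs between nucleolus and Cajal body (ENSBTAG00000007435, chromosome 26, 22692692 to 22701499, plus strand), had 239.8, 244.9 and 242.8 CPM in the GM samples and 82.2, 75.0 and 86.9 CPM in the DM samples. Its GM samples differed by only a few CPM, its DM samples were all below 0.5 of that level, and its fall of 2.98-fold (log2 fold change -1.58 (SE 0.068), adjusted p = 2.11e-08) was the largest of the 44. MYBBP1A, a nucleolar Myb-binding protein, had 260.5, 276.2 and 268.4 CPM in the GM samples and 125.2, 112.1 and 128.6 CPM in the DM samples. GNL3, the GTPase also known as nucleostemin, had 113.9, 123.1 and 126.6 CPM in the GM samples and 57.2, 60.4 and 60.5 CPM in the DM samples. The log2 fold changes were -1.14 (SE 0.068) for MYBBP1A and -1.03 (SE 0.066) for GNL3, and no DM sample of either came near the GM range. The GNL3 call at 2-fold was lost in 5 of the other settings. Across all roles, 12 of the 18 genes called at 2-fold kept that call in every setting tried other than the test against a fold change of 2.

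A few genes held much of the members' summed level. The 5 members with the highest mean GM CPM were FBL, MYBBP1A, NOLC1, NOP56 and DKC1. Together they made up 29.0% of the members' summed CPM in GM and 21.9% in DM. Levels between genes were compared on RPKM, which also divides by gene length. FBL had the highest RPKM in both groups, 263.7 ± 14.2 in GM and 100.5 ± 2.95 in DM, and UTP15 the lowest, 7.39 ± 0.548 and 5.44 ± 0.575 (SD, n = 3). The order of the 44 genes was largely kept, with a Spearman's rho of 0.925 between mean RPKM in GM and in DM across genes, which are not independent and share libraries. The order was not kept everywhere, and some genes far apart in GM came close in DM. NOP56 stood at 126.2 ± 7.13 RPKM and UBTF at 59.9 ± 4.16 RPKM in GM. In DM their values of 47.4 ± 3.66 and 48.1 ± 1.26 RPKM did not differ beyond their spread. The smaller share of FBL, MYBBP1A, NOLC1, NOP56 and DKC1 in DM is the same fact as a larger fall of these genes as a group. They were chosen by their GM level, so it is no separate result on level and change. The size of the change correlated only weakly with length and with RPKM averaged over all 6 samples, which include the DM values. Over the 44 genes, log2 fold change against mean log2 RPKM had Pearson's r of -0.200 and Spearman's rho of -0.182, and against log2 gene length -0.142 and -0.138.

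Ratios of RPKM between genes of one complex were compared within each sample, which removes library scaling. Several pairs shared a gene, among them those with DKC1, with PES1 and of box C/D, so the pairs were not independent. Of 11 pairs, 9 had GM and DM samples that did not overlap. How often pairs of other genes separate in this way was not computed, and 68.8% of all tested genes did so singly, in either direction. Each of these 9 had p = 0.1 in an exact two-sided permutation test, the smallest p that 3 against 3 samples allow, or 0.122 after Benjamini-Hochberg adjustment over the 11 pairs, so none could pass a threshold of 0.05.

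The widest shift was in the H/ACA core. The DKC1 to NOP10 ratio was 8.20, 8.12 and 7.72 in the GM samples and 3.28, 2.90 and 3.05 in the DM samples, a log2 change of -1.38. DKC1 to NHP2 went from 1.08 ± 0.069 to 0.606 ± 0.0517 and DKC1 to GAR1 from 2.31 ± 0.0058 to 1.52 ± 0.126 (SD, n = 3). DKC1, the enzyme, thus fell relative to each of its partners in all 3 DM samples. In the PeBoW complex, PES1 to WDR12 went from 3.17 ± 0.036 to 1.87 ± 0.290 and PES1 to BOP1 from 2.03 ± 0.117 to 1.46 ± 0.243. DM sample 3 set the low end of the PES1 to BOP1 ratio at 1.18, and without the samples numbered 3 its log2 change was -0.32 instead of -0.49.

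Among the t-UTP proteins, WDR43 to WDR75 went from 1.88 ± 0.0752 to 1.12 ± 0.101. POLR1A to POLR1B changed less, from 1.12 ± 0.0448 to 0.951 ± 0.081. In the box C/D particle the ratios were nearly kept: NOP56 to FBL was 0.471, 0.479 and 0.485 in the GM samples and 0.444, 0.476 and 0.492 in the DM samples, which overlapped (exact p = 0.8). NOP56 to NOP58 shifted by -0.18 and NOP58 to FBL by 0.16 on the log2 scale, small shifts beside those of the H/ACA core. Without the samples numbered 2 they were -0.11 and 0.075. IMP3 to IMP4 overlapped between the groups, at 0.834 ± 0.0385 in GM and 1.06 ± 0.244 in DM (exact p = 0.2).

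**Figure D3:**
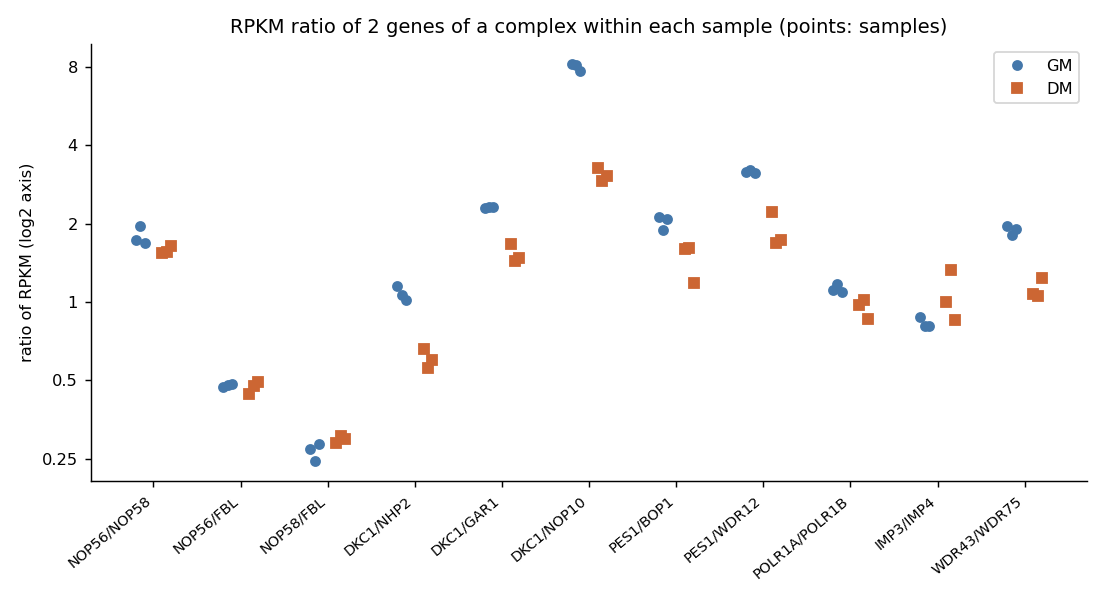
RPKM ratio of gene pairs of one complex (log2 vertical axis) in each GM (circles) and DM (squares) sample. DKC1 to NOP10 stands near 8 in GM and near 3 in DM, whereas NOP56 to FBL stays between 0.444 and 0.492 in all samples.

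Many nucleolar factor genes carry snoRNAs in their introns, which are released from the host transcript. By coordinates, 20 snoRNA genes lay inside 6 of the members on the same strand: NOP56, NOP58, DKC1, GNL3, WDR43 and TSR1. Of these, 16 had enough counts to be tested, 14 were lower in DM and 2 higher, and 5 were called lower, all past 2-fold, with 0 called higher. In NOP56, SNORD86 had 301, 323 and 280 counts in the GM samples and 70, 88 and 104 in the DM samples. SNORA51 in NOP56 had 86, 93 and 115 counts against 13, 20 and 15, and SNORD110 in NOP56 had 101, 70 and 64 against 12, 10 and 24. All 3 were lower in each DM sample than in any GM sample, with log2 fold changes of -1.62 (SE 0.165) for SNORD86, -2.44 (SE 0.295) for SNORA51 and -2.17 (SE 0.366) for SNORD110. One SNORD70 gene in NOP58 (ENSBTAG00000042181) had 38, 19 and 16 counts against 5, 4 and 2, and SNORD19B in GNL3 had 17, 24 and 26 against 7, 10 and 10. Both were lower in every DM sample, at -2.50 (SE 0.576) and -1.14 (SE 0.437), and the SNORD19B call (adjusted p = 0.0417) was lost with the non-coding transcript table's own library sizes (adjusted p = 0.112).

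The snoRNA counts call for care. The libraries were made by poly(A) capture, mature snoRNAs carry no poly(A) tail, and whether reads of unspliced host transcript were counted in these windows was not tested. Over all snoRNAs in the table the picture was similar, with 276 tested, 87 called lower, 11 called higher and a median log2 fold change of -0.94, beside -1.02 for the 16 inside members. The 2 that were higher, SNORD11B in NOP58 and one SNORD91 in TSR1, had at most 8 counts in a sample and did not pass the test.

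**Figure D4:**
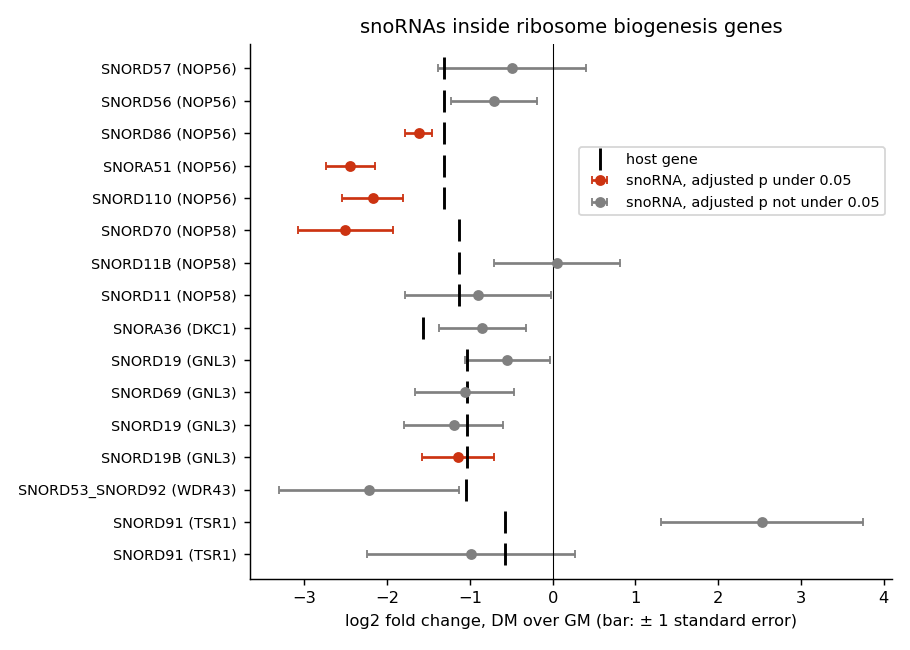
Log2 fold change (DM over GM, horizontal axis) of the 16 tested snoRNAs inside member genes, with 1 SE, and of the host gene (black bars). The 5 called snoRNAs (red) lie between -1.14 and -2.50, and the grey ones have wide errors at low counts.

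In the table of mRNA transcripts, made from the same reads, the 44 genes had 46 transcripts, since HEATR1 and RRP1B had more than one. All 46 were called lower at any fold and 19 at 2-fold, where 32.3% and 10.1% of all mRNA transcripts were called lower, and their median log2 fold change was -0.82. Except for HEATR1 and RRP1B, the transcript counts were those of the gene, so these calls are not a separate result. Both RRP1B transcripts, which share reads, were among the 19.

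A further 141 names of ribosome biogenesis outside the 50 were examined for the rest of the pathway. Of these, 115 were listed and tested, 90 were called lower and 3 higher at any fold, 22 were not called, and 23 were called lower and 0 higher at 2-fold. Their median log2 fold change was -0.59, a smaller fall than the -0.80 of the members, beside 0.03 over all genes. Of all tested genes, 31.4% were called lower and 31.6% higher at any fold, and 10.3% lower and 15.0% higher at 2-fold. In the members' level range, below which some of the 115 lay, 49.0% of genes were called lower at any fold and 10.5% at 2-fold. By role, 5 of 8 further genes of Pol I transcription, 7 of 10 of snoRNP assembly, 31 of 36 of the small subunit, 35 of 46 of the large subunit and 12 of 15 of the exosome and trimming were called lower. The largest falls were those of EXOSC2, a subunit of the RNA exosome, and of TCOF1, a nucleolar partner of Pol I. EXOSC2 had 47.3, 45.7 and 47.4 CPM in GM and 15.9, 14.1 and 15.4 CPM in DM (log2 fold change -1.63, SE 0.076), and TCOF1 had 90.4, 99.5 and 91.1 CPM in GM and 31.5, 31.1 and 33.4 CPM in DM (-1.55, SE 0.070).

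Against this direction, the genes called higher were RIOK3, SBDS and DDX31. RIOK3, a kinase of late small subunit assembly, had 44.3, 39.3 and 42.0 CPM in GM and 67.7, 71.6 and 63.7 CPM in DM (log2 fold change 0.69, SE 0.075). SBDS, which readies the large subunit for translation, had 105, 104 and 106 CPM in GM and 145, 159 and 150 CPM in DM (0.53, SE 0.060). The groups did not overlap for either gene, and DDX31, a helicase, rose by 0.16 on the log2 scale (SE 0.056, adjusted p = 0.0282). The DDX31 call was lost in 5 of 16 other settings (adjusted p between 0.0532 and 0.344), those with library size alone, with the replicate block, and without DM sample 1, GM sample 1 or GM sample 3, while RIOK3 and SBDS were called in all 16. RRN3, which recruits Pol I to the promoter, had 38.2, 36.6 and 38.5 CPM in GM and 28.2, 33.2 and 30.9 CPM in DM, lower in every DM sample (log2 fold change -0.30, SE 0.078, adjusted p = 0.00699).

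Ribosomal protein genes were picked by symbol pattern after the files had been seen. Of 48 tested genes for cytosolic ribosomal proteins, 19 (39.6%) were called higher and 4 (8.33%) lower at any fold, where 31.6% and 31.4% of all genes were, and their median log2 fold change was 0.14. One was called lower at 2-fold, RPL26L1 (log2 fold change -1.20, SE 0.092), a gene close in sequence to RPL26 whose reads may be shared. Of 71 genes for mitochondrial ribosomal proteins, 46 (64.8%) were called lower and 1 higher, with a median of -0.38, between the members and the cytosolic set. Reads of ribosomal protein genes can also be split with their many pseudogenes, so these counts are less certain than those of the members. The cytosolic set also held tested genes with very few reads, among them RPL3L, RPL23A and RPL26, with mean GM levels of 0.0241, 0.0424 and 0.631 CPM.

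**Figure D5:**
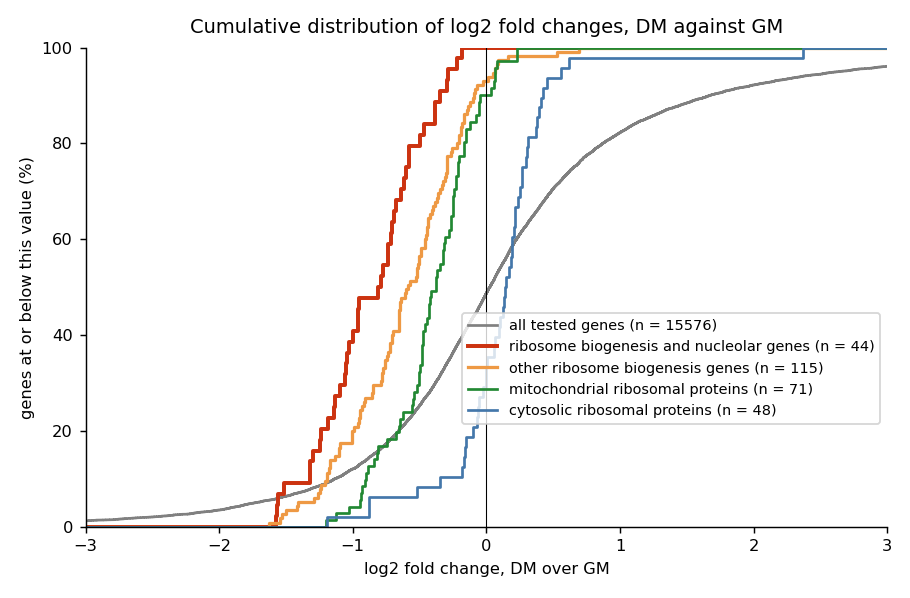
Cumulative share of genes (vertical axis, percent) at or below a log2 fold change (DM over GM, horizontal axis) for the 44 members, 115 further ribosome biogenesis genes, 71 mitochondrial and 48 cytosolic ribosomal protein genes and all 15576 tested genes. The medians are -0.80, -0.59, -0.38, 0.14 and 0.03, and the whole member curve lies left of 0.

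Genes of the MYC network and of mTOR signalling, known regulators of ribosome production, were called in each direction about as often as all genes. Of 16 tested, 5 (31.2%) were called lower and 5 (31.2%) higher at any fold, beside 31.4% and 31.6% of all genes, and 6 were not called. MYC, a transcription factor known to activate many ribosome biogenesis genes, had 149, 159 and 173 CPM in GM and 81.6, 87.4 and 100 CPM in DM. The groups did not overlap, and the log2 fold change was -0.84 (SE 0.087, adjusted p = 1.1e-05). MXD4, which competes with MYC for its partner MAX, had 11.1, 10.8 and 11.8 CPM in GM and 35.8, 33.6 and 31.3 CPM in DM, a rise of 1.58 on the log2 scale (SE 0.085). MXD3, of the same family, had 15.0, 20.2 and 18.7 CPM in GM and 7.76, 7.81 and 8.89 CPM in DM and fell by 1.14 on the log2 scale (SE 0.129), so the family did not move one way. RPTOR, a core subunit of the mTOR complex, fell by 0.61 (SE 0.070), and TSC1, an inhibitor of mTOR, rose by 0.47 (SE 0.067) on the same scale. MTOR and EIF4EBP1 were also called lower, at -0.348 (SE 0.069) and -0.285 (SE 0.068). RHEB, RPS6KB1 and TSC2 were not called, at 0.057, 0.079 and -0.041, so the mTOR genes were not called alike. MYCL, of the MYC family, rose by 0.76 on the log2 scale (SE 0.161), opposite to MYC. The part of these regulators in the fall of the 44 genes was not tested.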

How the data were processed

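Poly(A) RNA-seq of 3 GM and 3 DM samples was analysed from gene, mRNA and ncRNA tables. The deposited counts are raw counts per feature, which the authors made by aligning reads with HISAT2; the supplementary methods cite HTSeq for gene expression, and its version and the use of strand are not given in the sources used here. The methods name a buffalo genome, the tables list cattle Ensembl identifiers and coordinates with no build, and the submitters' processing notes list Bowtie 0.12.2, mm8 and mm9. The authors computed the deposited RPKM values from the raw counts, feature length and sample total. The deposited lists of differential features hold the authors' fold changes and p-values and were not used.

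Genes with at least 10 counts in total were tested with edgeR 4.0.16 (TMM, glmQLFit, glmQLFTest, Benjamini-Hochberg over all tested genes; R 4.3.3), with all 6 samples in 1 model. The SE was the log2 fold change divided by the root of F. On simulated counts, 179 of 200 genes changed 4-fold were recovered and 1 unchanged gene was called, over 15539 genes. The simulation gave all genes the same dispersion and changed few of them, so it does not bear on smaller changes such as those of the members. RPKM ratios were compared with exact permutation tests (scipy 1.17.1). The 44 genes, their roles and the other lists were chosen with earlier results of these data known. Per-sample values are given for the genes with the 2 largest changes and the smallest change in each role, for those called at 2-fold and for those of the ratio pairs. From the pathway lists, values are given for the called genes with the largest change in each direction, MYC and RRN3. DDX31, RPTOR, TSC1, MTOR, EIF4EBP1, RHEB, RPS6KB1, TSC2, MXD3, MYCL and RPL26L1 were named after their values were seen. Alternatives covered scaling, filters, DESeq2 1.42.0, a replicate block, a test against a fold change of 2 and each sample left out.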

Additional observations from a re-analysis of the deposited data

How the results depend on the processing

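No member changed direction in any of 748 values over 17 alternative settings: 715 kept their side of the 2-fold call, 29 lost it and 4 gained it. The test against a fold change of 2 reuses the main log2 fold changes, so its values could not reverse. Other scaling moved the median of all genes by less than the smallest member change (-0.186 for NOP10), so a reversal was unlikely there too. The median log2 fold change of the members was -0.90 with library size alone, which moved the median of all genes by -0.097 and under which 21 members passed 2-fold, GAR1, NIP7 and IMP4 being gained. With upper quartile scaling the median was -0.73 (all genes moved by 0.067) and 13 members passed. Tested against a fold change of 2, 11 members instead of 18, 14 further ribosome biogenesis genes instead of 23 and 2293 of all genes instead of 3936 were called at 2-fold, by a stricter rule. With the study's RPKM filter, 14 members and 2197 of all genes were called, with fewer genes tested. Leaving out each sample in turn gave 15 to 19 members at 2-fold, 42 to 44 at any fold and a median between -0.88 and -0.77. The NOP56 to FBL ratio changed by -0.024 on the log2 scale in all samples, by 0.006 without replicate 1 and by -0.047 without replicate 3; the cause was not tested. Deviations of same-numbered samples correlated at -0.00756, -0.0218 and -0.0105, so no pairing by replicate number was seen. The labels do not say whether same-numbered samples share a culture or animal, and these correlations cannot settle it. With the replicate block, 18 members were called at 2-fold and 43 at any fold, NOP10 being the one lost (adjusted p = 0.074, edgeR; DDX31 was lost too, at 0.0608), and their median was -0.81. The number of samples and unknown strand use limit what can be said of small changes such as those of NOP10 and UBTF.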
